A study of Mus musculus with 12 samples.

Results

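The genes described here are 8 markers of the nerves of the heart, read in RNA-Seq libraries of mouse atria and ventricles. They were chosen by symbol from the gene table, which lists 51826 genes, and all 8 were found there. Mbp, Sox10, Cdh19, Gfra3 and S100b (5 genes) are used as markers of Schwann cells and other peripheral glia, and Prph, Th and Dbh (3 genes) as markers of cardiac neurons. The 12 libraries came from 6 female FVB mice aged 10 weeks, with atria and ventricles of each mouse sequenced separately. Mice V119, V120 and V123 were CUG960 +dox mice, homozygous for TREDT960I and hemizygous for MHCrtTA. Mice V327, V333 and V334 were MHCrtTA +dox controls, hemizygous for MHCrtTA alone. TREDT960I is a transgene with 960 interrupted CTG repeats in human DMPK sequence behind a tetracycline-responsive promoter, and MHCrtTA drives the reverse tetracycline transactivator from the cardiomyocyte-specific alpha-myosin heavy chain promoter. By this design the repeat RNA was directed to cardiomyocytes, and its level in nerve cells was not measured here. All 6 mice, controls included, received doxycycline chow at 2 g/kg from postnatal day 1. The controls were bred in separate matings with wild-type mice, so that litter and genotype cannot be told apart. Total counts ran from 116127966 (V123 atria) to 160676189 (V119 ventricles) per library.

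Sympathetic neurons make norepinephrine from tyrosine. Th (tyrosine hydroxylase) carries out the rate-limiting step, Ddc decarboxylates the product to dopamine, and Dbh (dopamine beta-hydroxylase) turns dopamine into norepinephrine. Most sympathetic axons of the heart belong to cell bodies in ganglia outside it, while the intrinsic cardiac ganglia, mainly of parasympathetic neurons, lie on the atria. Schwann cells accompany the axons, and in heart muscle most of them wrap thin axons without forming compact myelin.

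Levels are given as CPM (counts scaled to a fixed library size) on library sizes scaled by TMM, a method that sets library sizes from genes of moderate change. For a comparison between genes, CPM was divided by the length of each gene's merged exons in kilobases. On that per-length scale, Mbp had the highest level of the 8 genes in control atria, at 3.29 ± 0.284 CPM per kb (mean ± SD, n = 3). It was followed by Cdh19 at 1.70 ± 0.498, Dbh at 1.56 ± 0.371, Gfra3 at 0.914 ± 0.407, S100b at 0.476 ± 0.128 and Sox10 at 0.448 ± 0.0727. Prph at 0.145 ± 0.00895 and Th at 0.0126 ± 0.0102 closed the order. Neighbours from Cdh19 to Sox10 in this order did not differ beyond their SDs. In control ventricles Dbh at 1.43 ± 0.279 and Cdh19 at 1.40 ± 0.317 CPM per kb were the highest and did not differ beyond their SDs. Gfra3 stood at 0.824 ± 0.106 and S100b at 0.672 ± 0.0414, and Mbp at 0.324 ± 0.00924 did not differ from Sox10 at 0.317 ± 0.0381 beyond their SDs. Prph reached 0.0853 ± 0.0123 CPM per kb and Th was at 0 counts in all 3 control ventricle libraries.

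**Figure D1:**
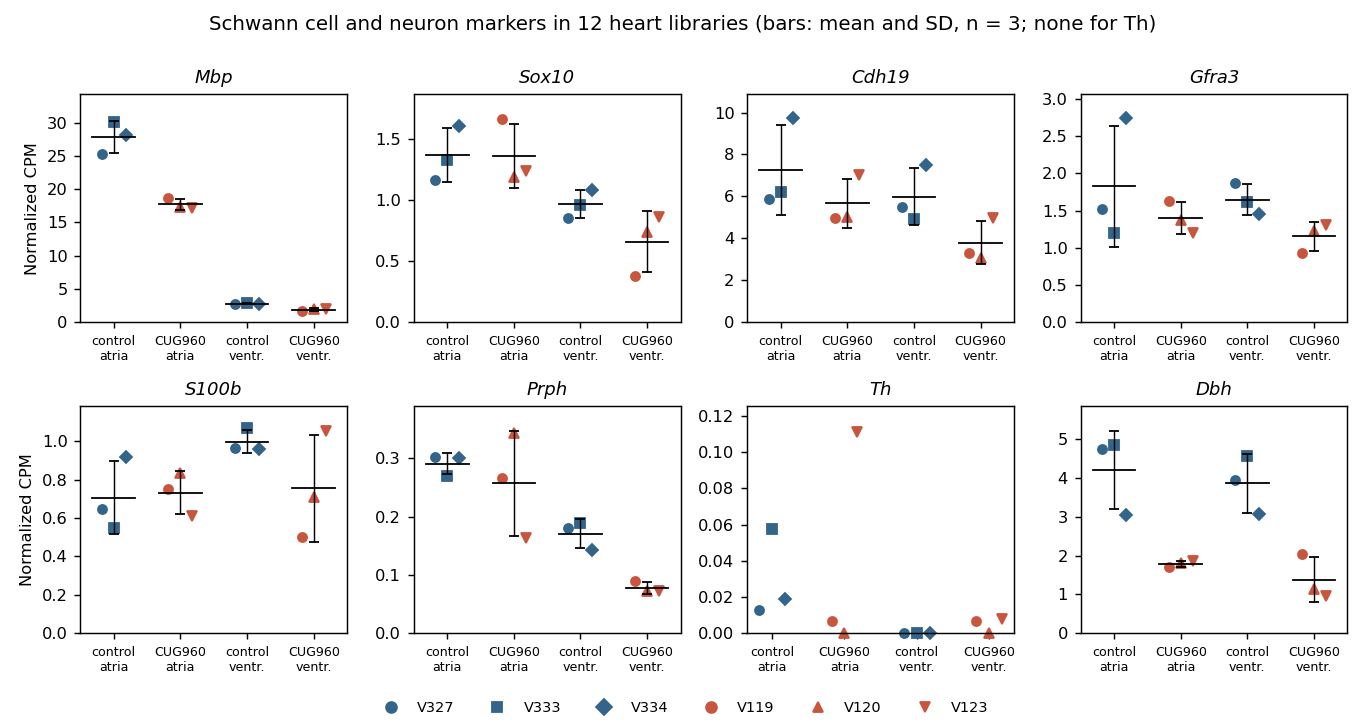
Normalized CPM (vertical axis, linear, from 0) of the 8 markers in each of the 12 libraries, by chamber and genotype, with a marker shape for each mouse, the mean as a line and the SD as an error bar (n = 3 mice). Dbh in CUG960 libraries lies between 0.965 and 2.03 CPM, under every control library of both chambers, and Mbp is 8.55-fold to 11.5-fold higher in atria than in ventricles of the same mouse.

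The labels of these genes were compared with other markers of the same cells. For neurons, Th reached at most 15 counts in a library. Chat and Slc18a3, which make and load acetylcholine, had 0 counts in every library, which allows up to 3 counts in each. The vesicle protein gene Snap25 had at most 2 counts. These genes were at or near 0, but other neuronal genes were measured. Of 30 pan-neuronal genes beside Prph, 17 passed the filter on low counts in atria and 16 in ventricles, and Slc6a2, the norepinephrine transporter, had between 40 and 87 counts in each atrium. Many of these genes are also expressed outside neurons, so Dbh and Prph are described below by their own values, with no cell type drawn from them. For Schwann cells, Gjb1, Ugt8a and Pmp2, genes of myelin and its lipids, had at most 3 counts. Sox10, Erbb3 and Lgi4, which do not depend on compact myelin, were measured in all libraries. Mbp was therefore far more abundant in atria than Gjb1, Ugt8a and Pmp2. The Mbp locus also holds the Golli transcripts, which are expressed outside myelinating glia and are counted under the same symbol.

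Chamber labels were met by the heart muscle genes. The atrial cardiomyocyte list summed to between 23384 and 30598 CPM in atria and to between 133.08 and 375.1 CPM in ventricles, with Nppa as its most abundant gene. The ventricular list, led by Myl2, summed to between 19778 and 24795 CPM in ventricles and between 2819.8 and 3136.6 CPM in atria. The atrial library of control mouse V334 stood apart from the other atria in leukocyte genes, which summed to 418.09 CPM there and to between 140.55 and 198.22 CPM in the other 5 atria. Most of that sum was Lyz2, the lysozyme gene of macrophages. The same library held the highest Cdh19 and Gfra3 levels of all 12, and values of the members without V334 are given where that changes a call or a direction.

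Dbh was lower in CUG960 +dox mice than in MHCrtTA +dox controls in both chambers. In control atria Dbh stood at 4.73, 4.83 and 3.05 CPM in V327, V333 and V334. In CUG960 atria it stood at 1.71, 1.80 and 1.85 CPM in V119, V120 and V123. The lowest control atrium was above the highest CUG960 atrium, although V334 was well under the other controls. In control ventricles Dbh stood at 3.95, 4.56 and 3.06 CPM, and in CUG960 ventricles at 2.03, 1.14 and 0.965 CPM in the same order of mice. These groups did not overlap either. The log2 fold change was -1.24 in atria (SE 0.184, 95% interval -1.66 to -0.82), a 2.36-fold lower level with an adjusted P value of 0.00448. In ventricles it was -1.48 (SE 0.275, 95% interval -2.10 to -0.87), a 2.80-fold lower level with an adjusted P value of 0.011. A gene was called where edgeR's quasi-likelihood test gave an adjusted P value under 0.05 over all genes tested and the fold change was at least 1.5. In these bulk samples fewer cells of a type and less RNA per cell cannot be told apart.

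Dbh was called in both chambers, but the ventricular call depended on the mice included. Without V120 the ventricular log2 fold change was -1.36 with an adjusted P value of 0.0541. Without V334, whose Dbh was the lowest of the controls in each chamber, the values were -1.42 in atria and -1.62 in ventricles, and both were called. Dbh had between 121 and 842 counts in a library.

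Th did not pass the filter on low counts and was not tested. It had 2, 10 and 3 counts in control atria and 1, 0 and 15 counts in CUG960 atria. In ventricles it had 0 counts in every control library and 1, 0 and 1 counts in CUG960 libraries. The 15 counts in V123 atria, at 0.111 CPM, were the highest value, in the group where another library had none. No difference between genotypes was detectable at this depth, and with 3 libraries against 3 a two-sided exact permutation test could not give a P value under 0.1.

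Dbh and Th lie apart in the genome. Per the GENCODE M21 annotation of GRCm38, Dbh occupies chromosome 2, 27165233 to 27183200, on the plus strand, with 2692 bases of merged exons. Th occupies chromosome 7, 142892752 to 142931128, on the minus strand, with 2364 bases. The 250 bases before the RefSeq transcription start of each gene are shown because these enzymes act in the same pathway and were measured at very different levels. Whether these bases bear on the levels was not tested. Each stretch lies within the GENCODE span given above, which begins farther upstream. The windows are chr2:27165257-27165506 (plus strand) and chr7:142899996-142900245 (minus strand) of GRCm38.p6, written 5′ to 3′ on the strand of the gene. Capitals mark matches to any of 4 motifs searched on both strands, namely TGACGTCA (the cAMP response element), ACAAAG (a SOX core), TAATTA (a homeodomain core) and CAGCTG (an E-box).
Dbh: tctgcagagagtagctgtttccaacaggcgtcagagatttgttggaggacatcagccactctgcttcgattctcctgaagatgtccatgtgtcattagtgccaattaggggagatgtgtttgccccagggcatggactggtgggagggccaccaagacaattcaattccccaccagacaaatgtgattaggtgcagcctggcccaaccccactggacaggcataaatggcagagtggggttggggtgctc
Th: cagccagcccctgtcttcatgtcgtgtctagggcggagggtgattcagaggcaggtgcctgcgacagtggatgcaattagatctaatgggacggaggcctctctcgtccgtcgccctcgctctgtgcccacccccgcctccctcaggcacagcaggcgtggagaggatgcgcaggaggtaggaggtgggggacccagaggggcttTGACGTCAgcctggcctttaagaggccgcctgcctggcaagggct
The Th window holds TGACGTCA from 45 to 38 bases before the start, on a palindrome that reads the same on both strands. This motif was present in 508 of 32851 RefSeq promoter windows of the same length, or 1.55%. The Dbh window held none of the 4 motifs, and neither did those of S100b and Prph, the other members with an entry in the promoter table. ACAAAG was found in 16.5%, TAATTA in 4.84% and CAGCTG in 13% of all windows.

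Prph encodes peripherin, an intermediate filament protein of peripheral neurons, and lies on chromosome 15, 99055174 to 99058978, plus strand. It was read at 0.302, 0.270 and 0.299 CPM in control atria and at 0.266, 0.342 and 0.162 CPM in CUG960 atria. The atrial groups overlapped, and V123 held the lowest value. In ventricles it was read at 0.180, 0.189 and 0.142 CPM in controls and at 0.0893, 0.0726 and 0.0718 CPM in CUG960 mice. Every CUG960 ventricle was under every control ventricle, from 9 to 13 counts against 16 to 20. The log2 fold change of -1.12 in ventricles (SE 0.383) had an adjusted P value of 0.0996 and was not called, and that in atria was -0.18 (adjusted P value 0.752).

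Mbp (myelin basic protein, chromosome 18, 82475146 to 82585637, plus strand) was lower in CUG960 mice. In control atria it stood at 25.3, 30.1 and 28.2 CPM and in CUG960 atria at 18.6, 17.4 and 17.2 CPM. The groups were well apart, with a log2 fold change of -0.66 (SE 0.0806, 95% interval -0.85 to -0.48), 1.58-fold lower, and an adjusted P value of 0.00202. The atrial call held when any of the 6 mice was left out. In ventricles Mbp stood at 2.76, 2.82 and 2.66 CPM in controls and at 1.62, 2.03 and 1.96 CPM in CUG960 mice. These groups did not overlap, but the change of -0.56 (SE 0.149, 1.47-fold lower, adjusted P value 0.0456) was under the fold limit and was not called.

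Of the 7 members that passed the filter on low counts, 2 were called in atria, both lower, against 5.49% of all 17650 genes called in either direction and 2.12% called lower. In ventricles 1 member was called, against 4.75% of all 16909 genes in either direction and 1.76% lower. Every CUG960 library lay under every control library for 2 members in atria (Mbp and Dbh), against 16.7% of all genes tested. In ventricles this held for 4 members (Mbp, Gfra3, Dbh and Prph), against 14.5% of all genes. The median log2 fold change of the members tested was -0.37 in atria and -0.56 in ventricles, beside -0.01 over all genes in each chamber. Both comparisons rest on different libraries of the same mice.

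**Figure D2:**
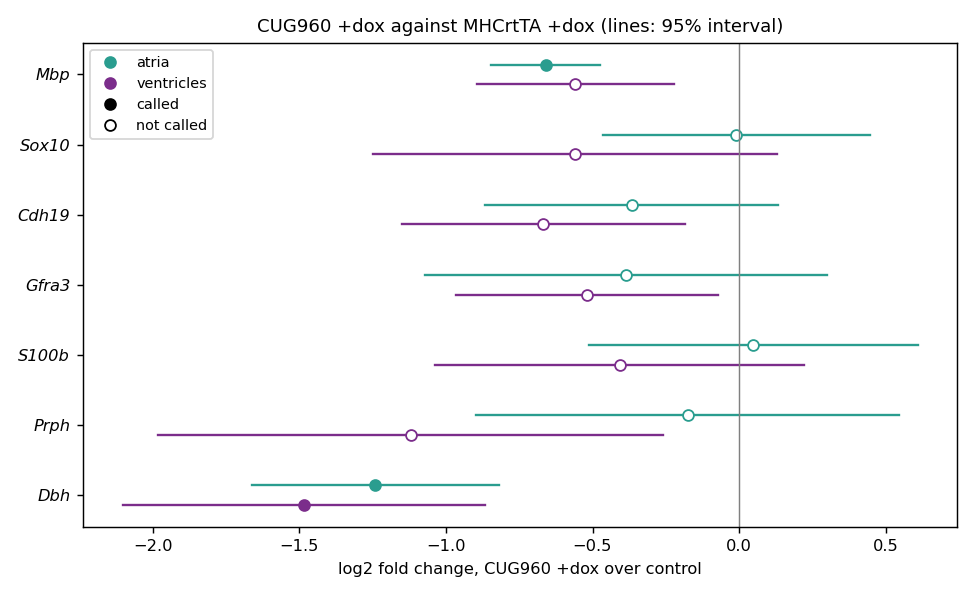
Log2 fold change of CUG960 +dox over MHCrtTA +dox controls (horizontal axis) for the 7 members tested, in atria and in ventricles, with 95% intervals as lines and called genes as filled points. Dbh is called in both chambers (-1.24 and -1.48) and Mbp in atria (-0.66), and the intervals of Sox10 and S100b include 0 in each chamber.

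None of the remaining glial markers was called between genotypes. Cdh19, a cadherin of Schwann cell precursors and mature Schwann cells (chromosome 1, 110888326 to 110977584, minus strand), stood at 5.85, 6.22 and 9.72 CPM in control atria and at 4.96, 5.02 and 7.01 CPM in CUG960 atria. In ventricles it stood at 5.51, 4.93 and 7.52 CPM in controls and at 3.30, 3.08 and 4.95 CPM in CUG960 mice. The groups overlapped in both chambers, where V123, the highest CUG960 mouse, was above the lowest controls. The log2 fold change was -0.37 in atria (SE 0.218, adjusted P value 0.298) and -0.67 in ventricles (SE 0.215, adjusted P value 0.0829). The ventricular value was called by DESeq2 (adjusted P value 0.0136), with no filter on low counts (0.015) and without V123 (0.0303).

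Sox10 is the transcription factor that maintains Schwann cell identity and lies on chromosome 15, 79154908 to 79165240, minus strand. It stood at 1.17, 1.33 and 1.61 CPM in control atria and at 1.67, 1.19 and 1.24 CPM in CUG960 atria, with a log2 fold change of -0.01 (95% interval -0.47 to 0.45). Without V334 Sox10 changed by 0.12 there. In ventricles it stood at 0.854, 0.964 and 1.09 CPM in controls and at 0.378, 0.740 and 0.861 CPM in CUG960 mice. These groups overlapped by a narrow margin, V119 was the lowest, and the log2 fold change was -0.56 (95% interval -1.25 to 0.13, adjusted P value 0.288). The atrial interval of Sox10 ended above the whole atrial interval of Dbh.

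Gfra3 encodes the receptor subunit that binds artemin and signals with Ret (chromosome 18, 34689898 to 34720387, minus strand). It stood at 1.53, 1.20 and 2.75 CPM in control atria and at 1.63, 1.38 and 1.20 CPM in CUG960 atria. The control value of 2.75 came from V334, without which the atrial log2 fold change went from -0.39 to 0.03. In ventricles the control values of 1.87, 1.62 and 1.45 CPM were all above the CUG960 values of 0.934, 1.23 and 1.3 CPM. That difference was -0.52 on the log2 scale (SE 0.199, adjusted P value 0.135) and was not called.

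S100b encodes a calcium-binding protein abundant in glia and lies on chromosome 10, 76253853 to 76261159, plus strand. Dip2a overlaps it on the opposite strand but shares 0 exon bases with it. S100b stood at 0.649, 0.551 and 0.918 CPM in control atria and at 0.749, 0.833 and 0.613 CPM in CUG960 atria. In ventricles it stood at 0.962, 1.07 and 0.962 CPM in controls and at 0.502, 0.711 and 1.05 CPM in CUG960 mice. The groups overlapped in both chambers, with log2 fold changes of 0.05 and -0.41 (adjusted P values 0.921 and 0.404).

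The chambers of the same hearts differed most in Mbp. In each of the 6 mice Mbp was higher in atria, by between 8.55-fold (V120) and 11.5-fold (V119). The log2 difference was 3.33 in control hearts (SE 0.0955, adjusted P value 1.4e-07) and 3.22 in CUG960 hearts (SE 0.115, adjusted P value 9.3e-08). Sox10 was also higher in the atria of all 6 mice, by 1.37-fold to 4.41-fold, and the highest ratio was that of V119. Its log2 difference was 0.49 in control hearts (adjusted P value 0.0638, not called) and 1.03 in CUG960 hearts (SE 0.303, adjusted P value 0.0175, called). Prph was higher in the atria of all 6 mice, by 1.43-fold to 4.71-fold. Its log2 difference was 0.75 in control hearts (adjusted P value 0.0504, not called) and 1.69 in CUG960 hearts (SE 0.391, adjusted P value 0.00533, called). The Sox10 call was lost without V119 (0.58, adjusted P value 0.0959) and without V120, and the Prph call was lost without V120 (1.39, adjusted P value 0.0685).

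Among the other members tested, none showed a called chamber difference. Cdh19 was higher in the atria of all 6 mice, by 1.06-fold to 1.63-fold. Its log2 difference was 0.27 in control hearts and 0.57 in CUG960 hearts, where the adjusted P value of 0.0455 passed but the fold limit did not. Dbh gave log2 differences of 0.11 (95% interval -0.37 to 0.60) in controls and 0.35 (95% interval -0.25 to 0.95) in CUG960 hearts. Without V119, the 1 CUG960 mouse with more Dbh in ventricles than in atria, the latter was 0.77 and was called (adjusted P value 0.0281). Gfra3 was higher in the atria of 3 of 6 mice and S100b in those of 2 of 6. The Gfra3 log2 difference in control hearts was 0.14, and -0.37 without V334, neither of them called. S100b was lower in all 3 control atria than in any control ventricle, with a log2 difference of -0.51 (adjusted P value 0.101). Without V334 it was -0.77 and was called (0.0491). Th, which the filter left untested, had more counts in atria than in ventricles in 4 of 6 mice, with 1 count in each chamber of V119 and 0 in both of V120. Every control atrium was above the control ventricles, which were at 0. With no filter on low counts it was called between chambers in control hearts.

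In control hearts 1 member was called between chambers, against 34.9% of all 17451 genes in either direction and 18.3% higher in atria. In CUG960 hearts 3 members were called, all higher in atria, against 33.6% of all 17559 genes in either direction and 17.2% higher in atria. Far more genes passed between chambers than between genotypes. The epicardial list moved with the chambers as a whole. Its 8 genes summed to between 196.44 and 330.17 CPM in atria and between 4.2511 and 8.2625 CPM in ventricles, Upk3b was the most abundant, and all 8 were called higher in the atria of both genotypes. The part of such tissue in the chamber differences of the members was not tested.

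**Figure D3:**
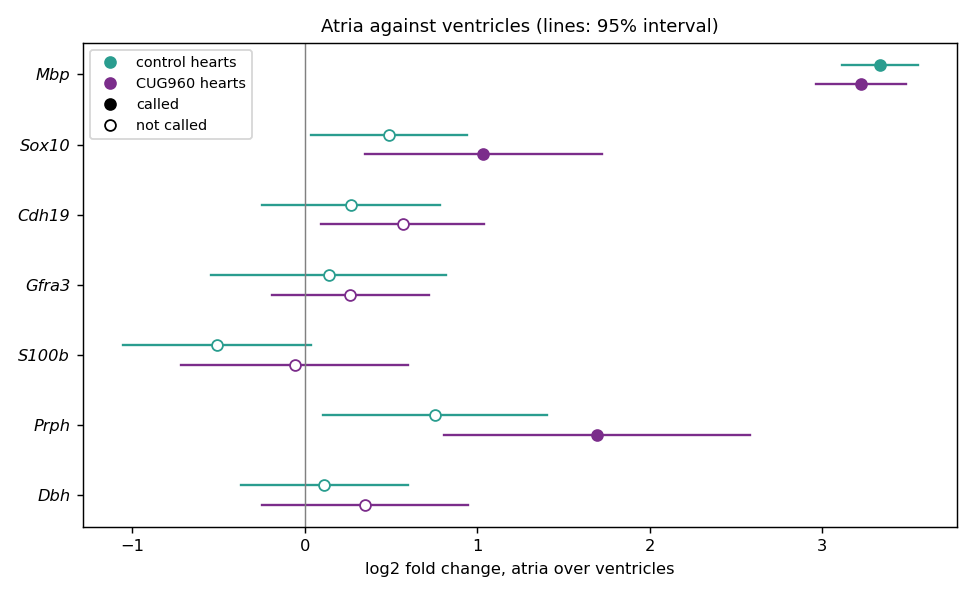
Log2 fold change of atria over ventricles (horizontal axis) for the 7 members tested, in control and in CUG960 hearts, with 95% intervals as lines and called genes as filled points. Mbp stands apart at 3.33 and 3.22, Sox10 and Prph are called in CUG960 hearts alone, and the intervals of both genotypes overlap for every member.

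Whether the genotype effect differed between chambers was tested with the interaction of chamber and genotype. No member was called (0 of 7 by edgeR), against 1.38% of all 18327 genes, and 0 of 7 had an unadjusted P value under 0.05. DESeq2 also called 0. The largest term was that of Prph, at 0.95 on the log2 scale (95% interval -0.06 to 1.95, unadjusted P value 0.0621). For Dbh the term was 0.24 (95% interval -0.54 to 1.03) and for Mbp -0.10 (95% interval -0.40 to 0.20). The calls in 1 chamber or 1 genotype alone were thus not shown to differ from those in the other.

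The other genes of catecholamine handling gave no call between genotypes, although Maob in both chambers and Maoa in atria passed the adjusted P value. Of 13 such genes beside Th and Dbh, 11 were tested in each chamber, and edgeR and DESeq2 called 0 of them in atria and 0 in ventricles, although 4 in each had an unadjusted P value under 0.05, against 30.2% of all genes in atria and 25.7% in ventricles. Their median log2 fold change was 0.01 in each chamber. Maob, which breaks down monoamines, stood at 92.0, 87.3 and 98.1 CPM in control atria and at 129.9, 135.6 and 133.5 CPM in CUG960 atria. In ventricles it stood at 57.6, 59.9 and 57.1 CPM in controls and at 84.9, 73.7 and 73.2 CPM in CUG960 mice. Every CUG960 library was above every control library in each chamber, and the log2 fold changes of 0.52 (adjusted P value 0.00185) and 0.40 (0.0139) were under the fold limit. Maoa, which also breaks down monoamines, stood at 15.7, 13.5 and 14.5 CPM in control atria and at 18.3, 18.8 and 20.0 CPM in CUG960 atria (0.38, adjusted P value 0.0146, under the fold limit). In ventricles every CUG960 library was under every control library for Maoa, with a log2 fold change of -0.40 (adjusted P value 0.127). Slc18a2, the vesicular monoamine transporter, stood at 3.93, 4.96 and 4.42 CPM in control atria and at 4.64, 3.71 and 4.55 CPM in CUG960 atria. Pnmt, which methylates norepinephrine to epinephrine, stood at 0.80, 0.769 and 1.05 CPM against 0.875, 0.943 and 0.967 CPM. Slc18a2 and Pnmt overlapped between genotypes. Slc6a2, the norepinephrine transporter of sympathetic endings, was at 0.334, 0.499 and 0.529 CPM in control atria and at 0.574, 0.329 and 0.295 CPM in CUG960 atria, and had at most 8 counts in any ventricle.

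Between chambers the same pathway was uneven. In control hearts 10 of 12 tested genes were called, 5 in each direction, and in CUG960 hearts 9 of 11, against 34.9% and 33.6% of all genes. Slc6a2 was higher in atria by 3.85 and 3.51 on the log2 scale in control and CUG960 hearts, while Ddc was lower by -3.48 and -3.27. Ddc stood at 0.105, 0.109 and 0.0446 CPM in control atria against 0.782, 1.38 and 0.730 CPM in control ventricles. Maoa was higher in atria (1.47 and 2.24). The enzyme before Dbh and the transporter after it thus differed between chambers in opposite directions, while Dbh itself was not called.

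**Figure D4:**
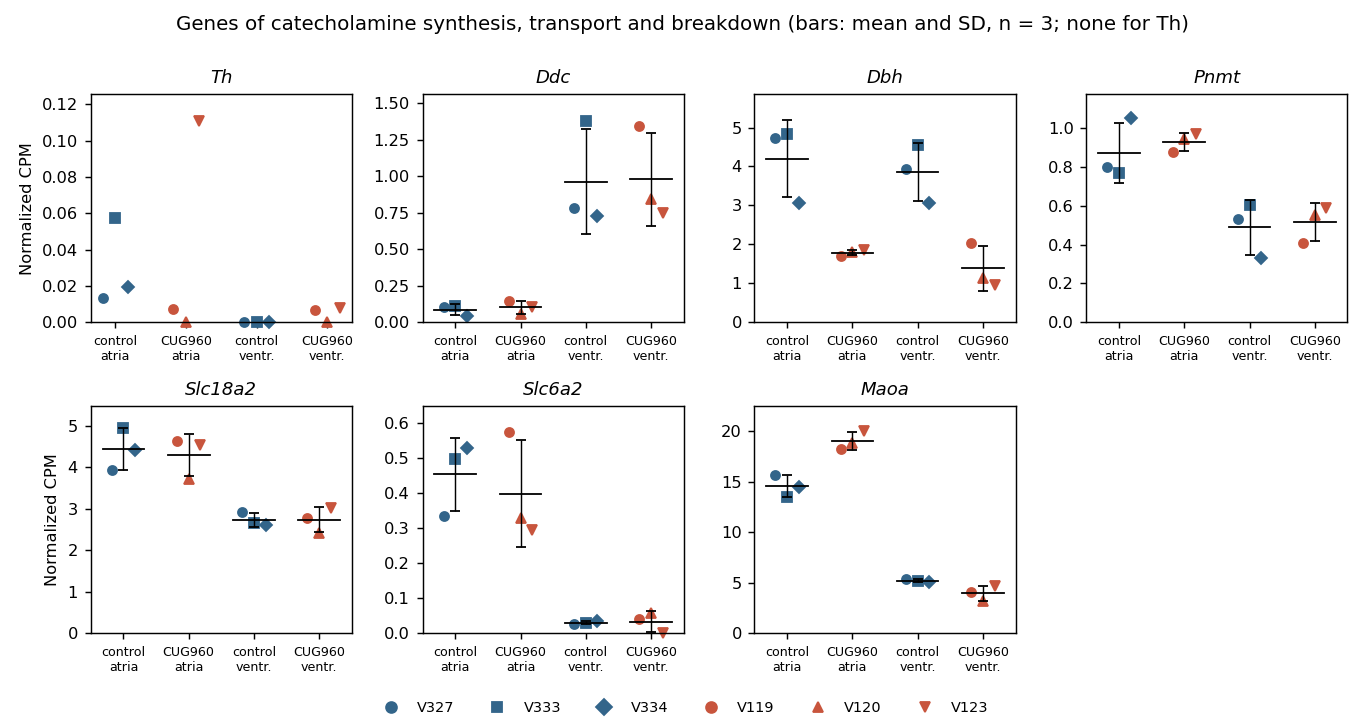
Normalized CPM (vertical axis, linear, from 0) of 7 genes of catecholamine synthesis, transport and breakdown in each of the 12 libraries, with a marker shape for each mouse, the mean as a line and the SD as an error bar (n = 3 mice). Dbh is lower in the CUG960 libraries of both chambers, while Slc6a2 and Ddc differ between chambers in opposite directions, by 3.85 and -3.48 on the log2 scale in control hearts.

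Of 20 other genes listed for myelinating Schwann cells, 15 were tested in atria and 1 was called, against 5.49% of all genes. In ventricles 11 were tested and 1 was called, against 4.75%. The list was written from general knowledge, and not all its genes are particular to Schwann cells. Dhh, the hedgehog ligand that Schwann cells send to the nerve sheath, was lower in CUG960 atria, at 0.294, 0.433 and 0.258 CPM against 0.977, 0.814 and 0.707 CPM in controls. The groups did not overlap, and the log2 fold change was -1.34 (SE 0.258, adjusted P value 0.0126), with the call lost without V119 (0.0542). The median over the list was -0.10 in atria and -0.16 in ventricles, where 0 genes were called without V334.

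Between chambers, 6 of the 14 myelin genes tested were called higher in atria in each genotype and 0 lower, against 18.3% of all genes called higher in control and 17.2% in CUG960 hearts. Mag, a glycoprotein of the myelin membrane beside the axon, was higher in atria by 2.66 in control hearts and 2.96 in CUG960 hearts on the log2 scale. Mobp was higher by 1.90 and 1.69, and Cnp, an enzyme of myelin cytoplasm, by 1.06 and 0.93. These differences were smaller than those of Mbp. In each ventricle Mag had between 4 and 11 counts and Mobp between 3 and 11, so their differences rest on few counts. Not every gene of the list was higher in atria. Gjc3 had a log2 difference of -0.86 in control hearts (adjusted P value 0.0672, not called) and 0.24 in CUG960 hearts. Egr2, the transcription factor of myelination, reached 16.2 CPM in V334 atria and 0.852 and 0.946 CPM in the other control atria, and its log2 difference fell from 3.95 to 1.71 without that mouse. Egr2 is also induced in stimulated cells of many kinds, and that library was the one with high leukocyte genes.

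The Schwann lineage list, which holds genes of precursors, non-myelinating cells and their signals, had the most calls of the nerve lists between genotypes. In atria 5 of 21 genes tested were called, 1 higher and 4 lower, and in ventricles 4 of 18, 1 higher and 3 lower. Over all genes 5.49% were called and 2.12% called lower in atria, and 4.75% and 1.76% in ventricles. The median log2 fold change was -0.34 in atria and -0.25 in ventricles, beside -0.01 over all genes. Foxd3, a neural crest and glial transcription factor, was lower in both chambers (-1.07, adjusted P value 0.048, and -1.37, adjusted P value 0.029). It stood at 0.629, 0.407 and 0.809 CPM in control atria against 0.238, 0.329 and 0.310 CPM in CUG960 atria. In ventricles it stood at 0.486, 0.444 and 0.597 CPM against 0.137, 0.240 and 0.215 CPM. The groups did not overlap in either chamber, but the atrial call was kept in 1 and the ventricular call in 0 of 6 fits that left out a mouse.

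Lgi4, a secreted protein of the Schwann cell and axon contact, stood at 8.92, 6.31 and 8.0 CPM in control atria and at 5.22, 5.39 and 4.89 CPM in CUG960 atria (-0.59, adjusted P value 0.0233). In ventricles its change of -0.60 was not called (0.0625). Pou3f1, a factor of promyelinating Schwann cells, was lower in CUG960 atria (-1.59, adjusted P value 0.0312), a call kept in 1 of 6 fits that left out a mouse, as was that of Lgi4. In ventricles Adam23 (-0.99, adjusted P value 0.0137) and L1cam (-0.80, adjusted P value 0.0201), both adhesion proteins of nerve, were lower. The Adam23 call was lost without V120 (0.0568), and that of L1cam was kept in 2 of 6 fits that left out a mouse. Postn, called lower in atria (-0.73), is made by fibroblasts as well as by Schwann cells. Without V334, 2 genes of this list were called in each chamber.

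Cadm4, an adhesion molecule of Schwann cells that also occurs in other tissues, moved against the rest. It rose from 10.1, 8.29 and 8.49 CPM in control atria to 35.4, 34.4 and 30.6 CPM in CUG960 atria, a log2 fold change of 1.89 (SE 0.0972, adjusted P value 3.7e-05). In ventricles it rose from 31.5, 36.5 and 30.0 CPM to 77.0, 71.9 and 67.0 CPM, a change of 1.13 (SE 0.0942). The groups were far apart in each chamber and both calls held in all 6 fits that left out a mouse. Cadm4 was lower in atria than in ventricles, the opposite of Mbp.

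Of 30 pan-neuronal genes beside Prph, 17 were tested in atria and 2 were called, both lower, against 2.12% of all genes called lower. In ventricles 16 were tested and 1 was called, against 4.75% of all genes in either direction. The median log2 fold change of the list was -0.36 in atria and 0.09 in ventricles. In atria 7 had an unadjusted P value under 0.05, against 30.2% of all genes, and DESeq2 called 4, against 5.9%. Eno2, the neuronal enolase, fell from 15.5, 15.1 and 13.5 CPM to 8.74, 10.1 and 9.40 CPM in atria (-0.65, adjusted P value 0.00283). Its ventricular levels of 2.33, 2.34 and 1.97 CPM in controls and 2.69, 2.73 and 3.45 CPM in CUG960 mice were not called apart. Celf4, an RNA-binding protein gene of neurons, was lower in CUG960 atria (-0.97, adjusted P value 0.0368), a call kept in 1 of 6 fits that left out a mouse. Uchl1, a ubiquitin hydrolase abundant in neurons, rose in ventricles from 13.3, 15.2 and 14.4 CPM to 20.3, 31.2 and 25.0 CPM (0.83, adjusted P value 0.00859).

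Of the cholinergic list, 3 of 12 genes passed the filter and 0 were called with genotype in either chamber by edgeR or DESeq2, with 1 in atria and 2 in ventricles at an unadjusted P value under 0.05. Over all genes edgeR called 5.49% and 4.75%, and 30.2% and 25.7% had such a P value. Without V334, 1 cholinergic gene was called in ventricles (Nos1, a nitric oxide synthase that heart muscle also expresses, higher). Of 10 autonomic transcription factors, 4 passed the filter and 0 were called by edgeR or DESeq2, with 1 in atria and 0 in ventricles at an unadjusted P value under 0.05. In the sensory list 0 of 4 were called in atria, by edgeR or DESeq2, and 0 had an unadjusted P value under 0.05. In ventricles 1 of 5 was called, against 4.75% of all genes. That gene was Scn10a, a sodium channel of sensory neurons that is also expressed in heart, at 3.24, 3.50 and 2.65 CPM in controls and 0.790, 0.791 and 0.494 CPM in CUG960 ventricles (-2.18, adjusted P value 5.0e-04). In atria its log2 fold change was -0.26 (adjusted P value 0.207). Without V334, 2 sensory genes were called in ventricles, the other being Isl2, a homeodomain factor, lower.

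Of the signals that nerves and Schwann cells receive, Sema3a, a repellent of sympathetic axons, rose in atria from 9.20, 8.41 and 8.91 CPM to 15.2, 15.7 and 14.5 CPM, and in ventricles from 2.54, 2.55 and 2.99 CPM to 6.63, 6.30 and 6.27 CPM. The log2 fold changes were 0.77 (adjusted P value 7.0e-04) and 1.24 (4.0e-04), with no overlap of groups. Cntf, a survival factor made by Schwann cells, fell in atria from 20.7, 15.2 and 17.8 CPM to 4.05, 6.45 and 4.69 CPM (-1.82, adjusted P value 7.7e-04). In ventricles Cntf averaged 0.511 ± 0.0915 CPM in controls and 0.529 ± 0.149 CPM in CUG960 mice (SD, n = 3). In all, 2 of 11 ligands tested were called in atria, against 5.49% of all genes, and 2 of 11 in ventricles, against 4.75%, the second being Gdf15 (1.36, adjusted P value 0.0299), a stress-induced ligand, whose call was kept in 3 of 6 fits that left out a mouse.

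Ret, the receptor tyrosine kinase that signals with Gfra3, was the 1 receptor of 13 tested that was called in each chamber, against 5.49% of all genes in atria and 4.75% in ventricles. It fell in atria from 1.19, 0.866 and 0.873 CPM to 0.462, 0.413 and 0.384 CPM (-1.22, SE 0.212, adjusted P value 0.00844). In ventricles it fell from 5.30, 5.43 and 4.06 CPM to 2.91, 2.76 and 2.71 CPM (-0.83, SE 0.144, adjusted P value 0.0085). The groups did not overlap, and both calls held in all 6 fits that left out a mouse. Ret was lower in atria than in ventricles by -2.35 and -2.75 on the log2 scale, whereas Gfra3 was not called between them.

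**Figure D5:**
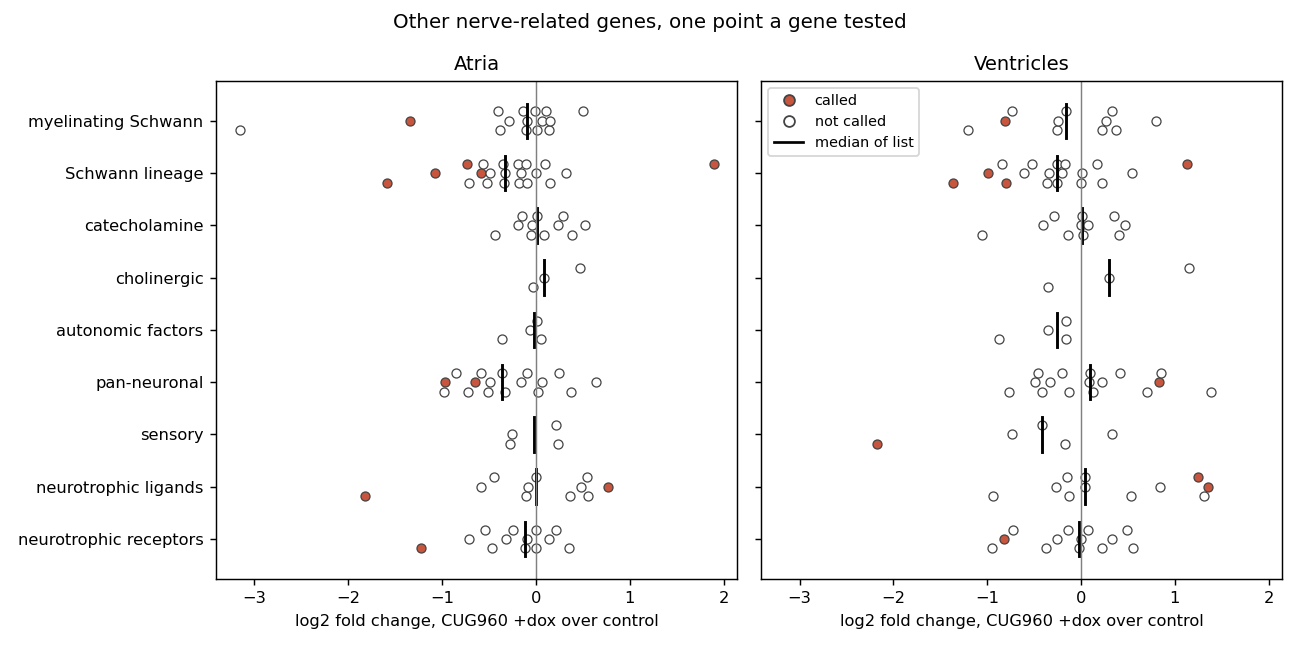
Log2 fold change of CUG960 +dox over MHCrtTA +dox controls (horizontal axis) for the genes tested in 9 nerve lists, members left out, with a point for each gene, called genes filled, and a line at the median of each list. The list medians lie between -0.42 and 0.30 and most points are open, with Cadm4 at 1.89 in atria and Scn10a at -2.18 in ventricles among the farthest called points.

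Markers of other cells were read beside these results. In ventricles, where Dbh was lower, 4 of 8 adipocyte genes tested were called lower too (Plin1 -1.86, Pck1 -2.19, Cfd -1.92 and Retn -2.05), against 1.76% of all genes called lower. The Retn call was kept in 1 of 6 fits that left out a mouse, and those of Retn and Plin1 were lost in a single fit of all 12 libraries. Their list summed to between 115.11 and 134.63 CPM in control and 114.98 and 116.7 CPM in CUG960 ventricles, but 93.7% of that sum was Adipor2, which many tissues express. In atria, where Dbh was lower as well, the median log2 fold change of the 8 adipocyte genes was -1.05, beside -1.73 in ventricles and -0.01 over all genes in each chamber. There edgeR and DESeq2 called 0 of 8, with 1 at an unadjusted P value under 0.05. Leukocyte and epicardial genes gave 0 calls by edgeR in either chamber. DESeq2 called 2 leukocyte genes in atria and 1 in ventricles, and 1 epicardial gene in each. At an unadjusted P value under 0.05 there were 2 leukocyte and 3 epicardial genes in atria and 1 and 2 in ventricles, against 30.2% and 25.7% of all genes, of which DESeq2 called 5.9% and 5.68%. Of the melanocyte list, which shares neural crest origin with Schwann cells, edgeR called 0 of 4 in either chamber, and DESeq2 1 in atria and 0 in ventricles, with 2 and 1 at an unadjusted P value under 0.05. In the chondrocyte list Sox9 was called lower in atria (-0.74, 1 of 2 tested), against 2.12% of all genes called lower. In ventricles 0 of 2 were called, against 4.75% of all genes in either direction. Of the sinoatrial node genes, 4 of 9 were called in atria, all higher and led by Hcn4 (2.55), against 3.37% of all genes called higher. Rgs6 (0.96) was the 1 of 8 called in ventricles, against 4.75% called in either direction, and 2 were called there without V334. Of the ventricular cardiomyocyte list, 2 of 7 genes tested were called lower in atria, where Dbh and Mbp were lower, against 2.12% of all genes, and the median log2 fold change was -0.55. Xirp2, an actin-binding protein of the intercalated disc, changed by -0.99 (adjusted P value 5.2e-04), a call kept in all 6 fits that left out a mouse, and Hey2, a transcription factor of ventricular muscle, by -0.67 (0.0494), kept in 1 of 6. In ventricles edgeR and DESeq2 called 0 of 8 of that list, with 3 at an unadjusted P value under 0.05. Of the atrial cardiomyocyte list, edgeR and DESeq2 called 0 of 8 in atria, with 2 at an unadjusted P value under 0.05. In ventricles 2 of 8 of the atrial list were called, against 4.75% of all genes in either direction. Nppa, the atrial natriuretic peptide, was higher (1.3, adjusted P value 0.0314, kept in 2 of 6 fits that left out a mouse). Bmp10, an atrial growth factor, was lower (-4.06, 0.00161). The part of these cells in the results for the 8 members was not tested.

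Across the 12 libraries, the likeness of other genes' log2 levels to those of each member was measured by Pearson's r over 14177 or 14178 genes averaging 0.5 CPM or more. All points share the contrast of chambers and of genotypes. Mbp was most like Ptgs1 (0.997), with Cd82 at 0.994, neither of them a myelin gene. Sox10 was close to Lsamp (0.907) and Aspa (0.906). Cdh19 was most like Pid1 (0.908), Gfra3 like Abra (0.887), S100b like Gt(ROSA)26Sor (0.912), Dbh like Gm11613 (0.932) and Prph like Pcnp (0.965). Among the members themselves r was 0.85 for Mbp with Prph, 0.79 for Mbp with Sox10, 0.72 for Sox10 with Cdh19, 0.10 for Th with Dbh and -0.30 for Mbp with S100b.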

How the data were processed

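Poly(A) RNA of atria and ventricles was sequenced after a stranded library preparation. The authors aligned reads to GRCm38 (mm10) and deposited RSEM (version 1.3.1) expected counts per gene, which were whole numbers. Whether the counting used strand is not given in the sources used here. The authors ran DESeq2 for their own comparisons, whose values were not used.

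Counts were analysed on the table of 51826 genes with edgeR 4.0.16 (R 4.3.3), filterByExpr, TMM factors and the quasi-likelihood test, with Benjamini-Hochberg adjustment over all genes tested. Genes were called at an adjusted p under 0.05 where the change was 1.5-fold or more, and interaction terms at the adjusted p alone. Genotypes were compared within each chamber over 3 mice each, and chambers within each genotype. The code was tested on simulated data. Genotype p-values within a chamber measure the spread between the 3 mice of each group. In the main chamber and interaction fits, the atrial and ventricular libraries of a mouse entered as independent. Those p-values therefore measure the spread between libraries. Of the members, 7 were tested and Th was not, under the filter.

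Atria and ventricles of a number come from the same mouse. Deviations from the group means correlated between chambers of the same mouse at r of 0.030 to 0.129, against -0.137 to 0.047 between mice, so the mouse was taken as a pairing and used as a block in an alternative. DESeq2 1.42.0, other scalings, filters and fold limits, and leaving out each mouse were also run.

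List genes were named by rule as up to 4 called genes of the largest change among those averaging 0.1 CPM or more, and other list genes for their known role, after their values were seen. The members and all 17 lists were chosen with earlier results of these data known. Coordinates and exon lengths came from GENCODE M21 and promoter windows from RefSeq (GRCm38.p6), which held 4 of the 8 members. Results for some list genes are not reported here.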

Additional observations from a re-analysis of the deposited data

Results flagged for a closer look

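No member was flagged. Of 160 list genes tested, 7 had an interaction of chamber and genotype that passed the adjusted p in edgeR's test of the difference itself, against 1.38% of all genes, given here as the atrial minus the ventricular CUG960 effect on the log2 scale. Cadm4 had 0.76, so that its rise was larger in atria (1.89) than in ventricles (1.13). Maoa had 0.79, with changes of 0.38 in atria and -0.40 in ventricles that were not called. Eno2 had -1.06 and Cntf -1.86, and both were called lower in atria alone. Scn10a had 1.92 and was called lower in ventricles alone. Of the atrial cardiomyocyte genes, Nppa had -1.72 and Bmp10 4.10. Bmp10 stood at 2.42, 2.38 and 3.74 CPM in control ventricles and at 0.0344, 0.276 and 0.207 CPM in CUG960 ventricles. The terms of Scn10a and Bmp10 were kept in all 6 fits that left out a mouse, that of Eno2 in 5, those of Cadm4, Cntf and Nppa in 2 and that of Maoa in 1.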

How the results depend on the processing

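For the 7 members tested, no called log2 fold change changed sign under any alternative run. The members called with genotype in atria (2) stayed 2 under every alternative and without any mouse, except that none passed a log2 limit of 1.5 (0). In ventricles the count of 1 became 2 with DESeq2 and with no filter (Cdh19 added), 2 with no fold limit (Mbp added) and 0 with the log2 limit of 1.5. It ran from 0 (without V120, Dbh lost) to 2 (without V123, Cdh19 added) when a mouse was left out. Between chambers in controls the count of 1 became 4 with total counts and no normalization factors (an alternative chosen after seeing the data), 2 with no filter (Th added) and 2 with at least 10 counts in every library (Prph added), and ran from 1 to 2 without a mouse (S100b added without V334). In CUG960 hearts the count of 3 became 6 with total counts, 4 with no fold limit (Cdh19 added) and 2 with the log2 limit of 1.5 (Sox10 lost), stayed 3 with at least 10 counts in every library (Cdh19 in place of Prph), and ran from 1 (without V120, Mbp alone) to 4 (without V123). Total counts moved the median chamber difference of all genes to 0.49 in control and 0.40 in CUG960 hearts, from 0.03 and 0.01, and the share of calls higher in atria from 52.4% to 82.7% and from 51.2% to 79.7%. They also moved the share of genotype calls that were higher from 63.1% to 80.6% in ventricles and the share of interaction calls above 0 from 49.8% to 34.5%. The cause of these shifts was not tested. The interaction gave 0 members under every alternative. With the mouse as a replicate block the members called were 1, 3 and 0 in the chamber and interaction comparisons, so the pairing changed no member's call.

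Over all genes, calls with genotype in atria numbered 594 higher and 375 lower, and with no fold limit 1404 and 1169, with the log2 limit of 1.5 159 and 57. In ventricles they were 507 and 297, with no fold limit 969 and 711, and with the log2 limit 134 and 65. Between chambers the log2 limit left 1339 and 894 genes in controls and 1315 and 885 in CUG960 hearts, and with no fold limit 4933 and 4793, and 4683 and 4834, were called. Interaction calls (126 above 0 and 127 below) were 344 and 316 by DESeq2, and between 34 and 40 (without V333) and 56 and 75 (without V334) when a mouse was left out. With RLE size factors all 32 group means of the members stayed within 1 SD, and with total counts 21 of 32 did. Several list calls were lost when a single mouse was left out. Depth limited Th and, with 9 to 53 counts, Prph.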
